A study of Mus musculus with 2 samples.

Results

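Nanog, a homeodomain transcription factor of pluripotent cells, was followed in mouse cells through 2 libraries made by single-cell RNA sequencing. It is 1 of 32286 features in each count matrix, and its row was read in every cell that passed the filters, by stage and by cell line. Nanog was chosen by its UMI counts in these same libraries, with earlier results of them known, so its levels are given as a description without a test.

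The first library held embryonic stem cells (ESCs) grown in serum with leukaemia inhibitory factor on feeder cells, and the other held epiblast-like cells (48h-EpiLCs) that had differentiated for 48 h in N2B27 medium with activin A, bFGF and KSR on Matrigel. Each library was a mixture, in equal cell numbers, of wild-type (WT) cells with the ROSA mT/mG reporter, which transcribe tdTomato, and Cnot8 knockout (KO) cells, and the strain is given as ICR. The KO line was made by Cas9 cutting of an exon near the 5′ end of Cnot8, a deadenylase of the Ccr4-Not complex, and was derived from blastocysts apart from the WT line. Each stage has 1 library, so stage and library cannot be told apart and no difference has a replicate check. The genotype field of both mixed libraries reads wild type, and the line of a cell has to be found from its transcripts.

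Nanog sustains the self-renewal of naive ESCs together with Pou5f1 (Oct4), Sox2 and partners such as Esrrb, Klf4 and Tbx3. Its protein is known to fluctuate between cells of ESC cultures in serum, with part of the cells low and others high, and low cells are held to be readier to differentiate. Its transcripts decline when naive cells move to the formative state, which EpiLCs represent, and formative cells gain factors such as Otx2, Pou3f1 and Fgf5.

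In the annotation of the build used (GRCm38), Nanog (ENSMUSG00000012396) occupies the plus strand of chromosome 6, between 122707489 and 122714633. Its 3 transcripts have 4 or 5 exons and share a last exon of 1492 bases, where counting from the 3′ end is concentrated, and no other gene overlaps the locus. Of 1443 windows of 50 bases in that exon, 101 also occur in other transcripts, among them the pseudogene Nanog-ps1, and they lie 846 bases before the transcript end. The 250 bases before the start of the gene, from RefSeq on GRCm38.p6 (chr6:122707239-122707488, plus strand), are shown because Pou5f1 and Sox2, whose transcripts are compared with those of Nanog below, are known to act on this promoter. Capitals mark an octamer followed by a Sox motif, 62 bases before the start:
Nanog promoter: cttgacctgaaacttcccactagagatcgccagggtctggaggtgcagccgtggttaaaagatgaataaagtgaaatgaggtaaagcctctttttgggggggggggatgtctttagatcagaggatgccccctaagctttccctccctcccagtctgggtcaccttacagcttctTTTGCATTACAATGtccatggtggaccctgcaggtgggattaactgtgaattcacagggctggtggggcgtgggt

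The joint letters searched, TTTGCATNACAATG on either strand, occur in 2 of 32817 promoter windows of the same table (0.0061%), and both windows belong to Nanog, which is listed with overlapping start sites. Alone, the octamer TTTGCAT occurs in 4.13% of windows and the Sox letters ACAATG in 10.7%. In the windows found for 8 naive partners the octamer occurs in Zfp42 only, and the joint letters occur in none of them. The joint letters are those of the Nanog promoter itself with the base N left free, so a match there was fixed in advance. Other spellings of the motifs were not searched, so these counts cover the exact letters only and do not set Nanog apart.

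A cell was kept when it had 1000 or more genes detected and no more than 10% of its UMIs (unique molecular identifiers, counts of captured mRNA molecules) from mitochondrial genes, which left 11054 of 13184 barcodes in the ESC library and 9400 of 12427 in the 48h-EpiLC library. A cell was called WT with at least 1 tdTomato UMI and none from the Y-linked Ddx3y, Eif2s3y, Kdm5d and Uty, and KO with no tdTomato UMI and at least 2 Y-linked ones. Cells with markers of feeder fibroblasts, primitive endoderm or 2-cell-like cells were then set aside, 148 KO and 9 WT cells in the ESC library and 16 KO cells in the 48h-EpiLC library. This left 426 WT and 2830 KO ESCs and 368 WT and 2961 KO 48h-EpiLCs, with median depths of 13139.5, 13307.5, 15598 and 17638 UMIs. The other 7641 ESCs and 6055 48h-EpiLCs met neither rule. A wider assignment by the likelihood of the rule genes and 6 further genes that differ between the lines took in 2868 WT and 4311 KO ESCs and 2952 WT and 4079 KO 48h-EpiLCs. The 2 libraries shared 41 barcodes. The lines differ in sex-linked transcripts and origin as well as in Cnot8, so that line and genotype cannot be told apart.

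Cnot8, the targeted gene, was at 43.0 CPM (UMIs scaled to a common total per class) in WT and 72.9 CPM in KO ESCs. At 48 h it was at 49.7 CPM in WT and 62.5 CPM in KO cells. Counts from the 3′ end need not cover the edited exon and give no check of the knockout. All 6 markers of pluripotent cells were above 0 in all 4 classes, with sums of 3509 to 5089 CPM. The 9 feeder markers summed to 8.66 to 13.2 CPM, the 9 endoderm markers to 7.23 to 18.5 CPM and 12 2-cell-like markers to 1.49 to 2.92 CPM, after the cells that met those lists had been set aside.

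Nanog transcripts were most abundant in WT ESCs and least abundant in KO 48h-EpiLCs. The level was 85.5 CPM (78.2 to 93.2, exact 95% Poisson interval) in WT ESCs, from 513 UMIs, and 57.9 CPM (55.6 to 60.3) in KO ESCs, from 2403 UMIs. In 48h-EpiLCs it was 27.5 CPM (23.5 to 31.9, 171 UMIs) in WT and 17.2 CPM (16.2 to 18.3, 1017 UMIs) in KO cells. No pair of neighbours in this order had overlapping intervals, which cover counting error only and not the spread between cultures. The wider assignment gave the same order, at 83.4, 59.0, 28.1 and 16.1 CPM.

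**Figure D1:**
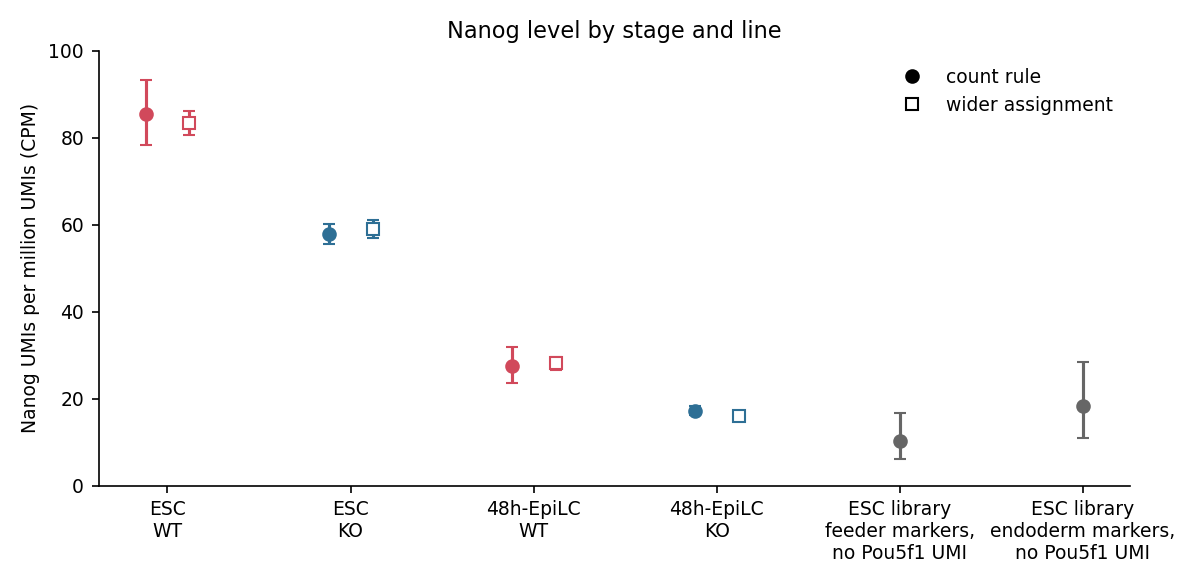
Nanog level (CPM, vertical axis) in WT (red) and KO (blue) cells of both stages and in 2 groups of cells with markers of other types (grey), with exact 95% Poisson intervals for counting error. Filled circles are the cells of the count rule and open squares those of the wider assignment. The level runs from 85.5 CPM in WT ESCs to 17.2 CPM in KO 48h-EpiLCs, and cells with feeder markers and no Pou5f1 UMI are at 10.4 CPM.

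Nanog was lower in 48h-EpiLCs than in ESCs of both lines. From ESCs to 48h-EpiLCs the log2 ratio was -1.64 (-1.89 to -1.38, exact binomial interval) in WT and -1.75 (-1.85 to -1.64) in KO cells. The KO value was lower by 0.11 on the log2 scale, with an interval for counting error (-0.38 to 0.16) that includes 0. With the wider assignment that difference was -0.30 (-0.43 to -0.17), so that it depends on how cells are given to the lines.

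At each stage KO cells had less Nanog RNA than WT cells. The log2 ratio of KO over WT was -0.56 (-0.70 to -0.42) in ESCs and -0.67 (-0.91 to -0.43) in 48h-EpiLCs. The median of all 7912 genes measured in ESCs was 0.12, and scaling by the median of ratios over the genes found in both lines (0.10) put Nanog at -0.66. Leaving out the cells with the highest doublet scores gave -0.63 in ESCs and -0.73 in 48h-EpiLCs.

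The naive partners of Nanog did not share its lower level in KO cells as a list, with a median log2 ratio of 0.22 in ESCs. Of 11 naive partners measured in ESCs, 1 was higher in KO cells by 1.5 times or more (12% of all genes were) and 1 was lower (5.21% of all genes). Zfp42 (Rex1), a zinc finger marker of naive cells, was at 305.5 CPM in WT and 625.1 in KO ESCs. Klf4, a Krüppel-like factor downstream of LIF, was at 153.9 CPM in WT and 88.7 in KO ESCs and so lay on the same side as Nanog. In 48h-EpiLCs 4 of 6 measured partners were higher in KO cells by that fold (7.67% of all genes) and none was lower (4.17%). They included Klf2, at 37.5 CPM in WT and 92.8 in KO cells, while Nanog was at 27.5 and 17.2 CPM. Esrrb, at 3.54 CPM in WT and 11.3 in KO cells, reached the 10 CPM needed to be counted only in KO cells. Klf4, at 8.52 CPM in WT and 4.83 in KO cells, was lower but below 10 CPM in both and so not counted. Tbx3, Tfcp2l1, Nr5a2, Prdm14 and Tcl1 were also left out for this reason, and they were higher in KO cells. The absence of lower partners thus holds for the measured ones only.

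Between the stages Nanog and most of its partners were lower at 48 h. Of 11 naive partners, 10 were lower in WT 48h-EpiLCs than in WT ESCs by 1.5 times or more (11.8% of all genes) and 10 were lower in KO cells (10.1%). Esrrb, Klf4, Tbx3, Tfcp2l1, Nr5a2 and Tcl1 reached 10 CPM in WT ESCs but not in WT 48h-EpiLCs. They were thus counted through the stage where they were higher, and in KO cells the same held for these genes except Esrrb. The medians of the log2 ratios over the 11 partners were -2.99 and -2.43, further from 0 than the -1.64 and -1.75 of Nanog. Dppa3 (Stella), a maternal factor whose gene lies 77217 bp before Nanog, was the exception, at 15.8 and 21.5 CPM in WT and 11.8 and 47.6 CPM in KO cells. Of the core factors, Sox2 and Sall4 were lower at 48 h in both lines, and Pou5f1 was at 100.4 and 109.3 CPM in WT and 77.0 and 82.4 CPM in KO cells. Of 8 formative genes, 5 were higher by that fold in WT (13.1% of all genes) and 7 in KO cells (8.58%). Among these, Fgf5 was below 10 CPM in ESCs of both lines (2.50 in WT and 1.25 in KO), as was Zic2 in KO ESCs (8.84). Tcf7l1, a repressor of Nanog, stood at 59.6 CPM in both WT classes and near 37 CPM in both KO classes (37.6 in ESCs, 37.3 in 48h-EpiLCs).

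A Nanog UMI was found in 57.3% of WT ESCs (52.4% to 62.0%, exact binomial interval), 45.3% of KO ESCs, 30.7% of WT 48h-EpiLCs and 22.9% of KO 48h-EpiLCs. These shares rest on depth, so each cell was also thinned at random to 5000 UMIs, which left out 1, 23, 1 and 9 shallower cells. The shares were then 31.8%, 22.2%, 11.2% and 7.49% in the same order, and the levels were 86.6, 59.1, 28.3 and 17.8 CPM.

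Background from free RNA was gauged in cells of types that should lack Nanog. In 121 ESC-library cells with feeder markers and no Pou5f1 UMI (median 11999 UMIs) the level was 10.4 CPM (6.05 to 16.6), and 11.6% of cells had a Nanog UMI, or 6.96% after thinning. In 91 cells with endoderm markers and no Pou5f1 UMI (median 11209 UMIs) it was 18.2 CPM from 19 Nanog UMIs, with 18.7% of cells, or 4.60% after thinning. Both groups lay far below the ESC classes of their own library. All 196 cells with feeder markers, whether or not they had a Pou5f1 UMI, were at 22.5 CPM (17.7 to 28.3). The thinned share in KO 48h-EpiLCs (7.49%) and their level (17.2 CPM) are of the size of this background. It was measured in the other library, where Nanog RNA was more abundant. The 48h-EpiLC library held no such group of sufficient size, so its own background could not be measured. Its 39 cells with 2-cell-like markers were at 13.4 CPM (5.78 to 26.4). They do not gauge background, since 25 cells with these markers in the ESC library were at 69.7 CPM (42.6 to 107.7).

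Levels just inside and just outside the line rules were as follows. In ESCs without tdTomato, those with exactly 1 Y-linked UMI were at 64.9 CPM, those with exactly 2 at 56.5 CPM and those with none at 77.9 CPM. In 48h-EpiLCs the same groups were at 18.8, 15.1 and 25.9 CPM. ESCs with tdTomato and exactly 1 Y-linked UMI (47 cells) were at 61.8 CPM, against 83.5 CPM in those with 1 tdTomato UMI and no Y-linked one. Cells that the wider assignment added outside the rule classes gave the same order of the lines after thinning. ESCs were at 86.5 CPM in WT and 65.9 CPM in KO cells, and 48h-EpiLCs were at 28.7 CPM in WT and 14.8 CPM in KO cells.

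Nanog varied between cells of 1 class by more than counting allows. Among 426 WT ESCs, 182 had no Nanog UMI, 112 had 1, 73 had 2 and 23 had 3, and 36 had 4 or more, with a maximum of 13. If every cell had held the same share of Nanog, a Poisson distribution at each cell's depth would give 136.6 cells without a UMI and 1.59 cells with 6 or more, where 9 were seen. Among 2830 KO ESCs, 1548 had none and 40 had 6 or more, against 1273 and 2.97 by the Poisson distribution. Both ends of the distribution were thus fuller than the Poisson one.

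In 48h-EpiLCs the level was lower and the WT class small. Of 368 WT cells 255 had no Nanog UMI, against 234.3 by the Poisson distribution. Of 2961 KO cells 2283 had none, against 2122, and 10 had 6 or more, against 0.036. The highest cell had 9 UMIs in WT and 10 in KO 48h-EpiLCs.

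**Figure D2:**
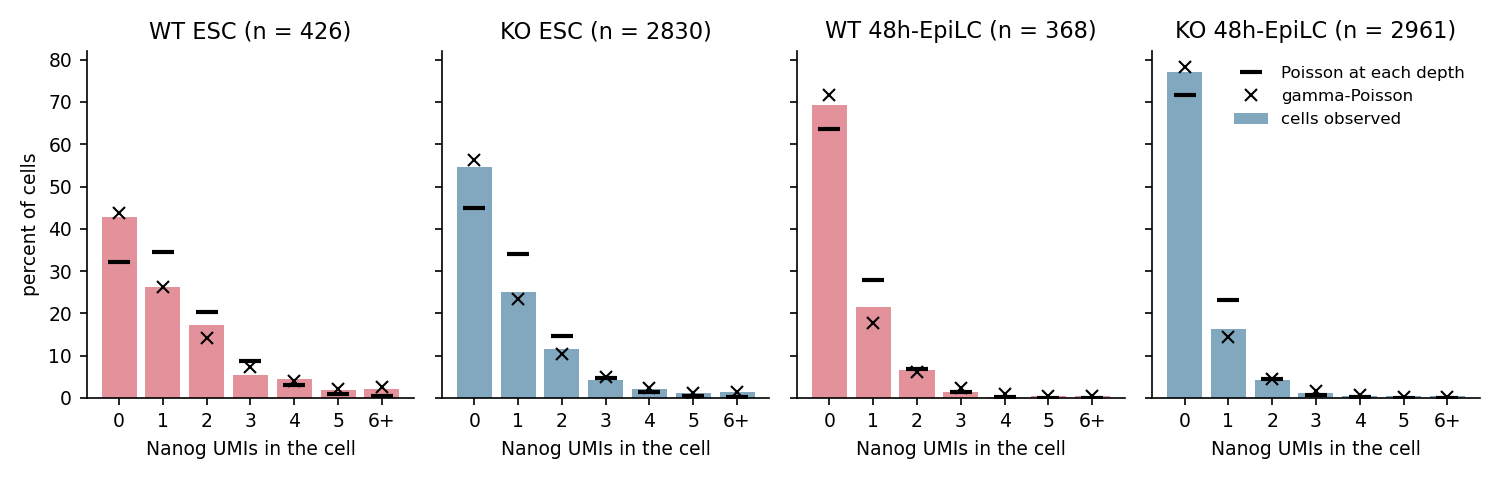
Percent of cells (vertical axis) with each number of Nanog UMIs (horizontal axis), at full depth, in WT (red) and KO (blue) ESCs and 48h-EpiLCs. Dashes give the Poisson distribution at each cell's depth and crosses a gamma-Poisson distribution with the class's own variance. In KO ESCs 54.7% of cells had no Nanog UMI, against 45.0% by the Poisson distribution.

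The extra variation, which is the squared coefficient of variation left after the Poisson part, was 0.75 in WT and 1.08 in KO ESCs and 1.69 and 2.21 in WT and KO 48h-EpiLCs. The medians over all genes of sufficient level were 0.058 to 0.078. Nanog ranked 363 from the top of 7276 genes in WT ESCs and 190 of 7661 in KO ESCs, and 63 of 7624 in KO 48h-EpiLCs. The WT 48h-EpiLC value rests on few cells, with 2 cells at 5 Nanog UMIs and 2 at 6 or more, and is not ranked for that reason. Its interval, from the spread over cells, was -0.21 to 3.60 and included 0. With the wider assignment the value for WT 48h-EpiLCs was 0.95 in place of 1.69, and the other classes were at 0.97, 1.06 and 2.45. The higher value at 48 h in WT cells therefore rests on the choice of cells.

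Among other factors of pluripotent cells, Klf4 had extra variation of 0.74 in WT and 0.60 in KO ESCs, and Tbx3, a T-box factor of naive cells, had 1.44 and 1.40. Pou5f1 was at 0.28 and 0.060 and Zfp42 at 0.23 and 0.18, below Nanog in both lines. Pou3f1 (Oct6), a POU factor of the formative state, was at 1.84 and 1.15.

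The Nanog level was nearly the same across depths in KO 48h-EpiLCs, at 17.3, 17.2 and 17.3 CPM in cells of low, middle and high UMI total. In KO ESCs it was 74.5, 51.9 and 54.3 CPM over the same ranges, so that the shallower cells had more, and in WT ESCs it was 94.7, 77.4 and 86.3 CPM. In WT 48h-EpiLCs it was 31.8, 30.8 and 23.3 CPM, so that the deeper cells had less.

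Cells with a Nanog UMI were compared with cells without one, within each class and after thinning to 5000 UMIs. In KO ESCs (624 cells with, 2183 without) the naive partners summed to 2025 CPM with and 1620 CPM without Nanog, a log2 ratio of 0.32 (0.28 to 0.36). In WT ESCs (135 and 290 cells) they summed to 1627 and 1257 CPM, a log2 ratio of 0.37 (0.26 to 0.48). In cells that only the wider assignment placed, the ratios were 0.29 (0.24 to 0.34) in WT and 0.24 (0.19 to 0.29) in KO ESCs. The ratio lay above 0 in every set of cells. The median UMI totals before thinning were 12782.5 with and 13507 without Nanog in KO ESCs and 13134 and 13147 in WT ESCs, and the mitochondrial shares were 3.94% and 3.78%, and 4.05% and 3.81%; their part in the result was not tested.

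Klf4 and Tbx3 had the highest log2 ratios of the naive partners in KO ESCs. Of 11 measured partners these 2 were higher by 1.5 times or more (0.775% of all genes were) and none was lower (0.483%). Klf4 was at 125.4 CPM with and 79.0 CPM without Nanog, a log2 ratio of 0.67 (0.49 to 0.84), and 248 cells held both transcripts where 200.5 would if they were independent. Tbx3 was at 67.6 and 34.9 CPM, a log2 ratio of 0.95 (0.70 to 1.20), with 143 cells holding both against 100.7. The orphan receptor Nr5a2 (0.52), the Grainyhead-like factor Tfcp2l1 (0.51), Zfp42 (0.37) and Klf2 (0.23) had smaller log2 ratios, with intervals above 0.

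In KO ESCs the log2 ratio was 0.21 (-0.03 to 0.44) for Esrrb, an orphan receptor that binds with Nanog, 0.12 for Klf5 and 0.05 (-0.13 to 0.24) for Nr0b1 (Dax1). In WT ESCs Esrrb was at 0.69 (0.08 to 1.29) by the count rule and 0.41 (0.19 to 0.63) by the wider assignment. In WT ESCs of the count rule 3 of 11 partners were higher by that fold (7.47% of all genes) and 1 was lower (8.36%), with few cells behind each value. With the wider assignment 3 were higher in WT (0.504% of all genes) and 2 in KO ESCs (0.37%), none was lower (0.385% and 0.191%), and Klf4 stood at 0.44 and 0.67.

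Core factors were also higher in cells with Nanog in the ESC library. Summed over Pou5f1, Sox2 and Sall4 the log2 ratio was 0.33 (0.15 to 0.50) in WT and 0.26 (0.18 to 0.34) in KO ESCs, but 0.09 (-0.002 to 0.19) in the KO ESCs that only the wider assignment placed. Sox2 was at 286.6 CPM with and 234.4 CPM without Nanog in KO ESCs, and Sall4 at 204.5 and 172.1 CPM. Pou5f1, whose pseudogene copies make its counts uncertain, had a log2 ratio of 0.18 (-0.02 to 0.39).

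The sum of the formative genes was lower in Nanog-positive ESCs, with few single genes past the fold. It had a log2 ratio of -0.27 (-0.44 to -0.10) in WT and -0.12 (-0.20 to -0.05) in KO ESCs. Of 7 measured genes, none was higher or lower by 1.5 times or more in KO ESCs (0.775% and 0.483% of all genes), and 1 was higher and 2 were lower in WT ESCs (7.47% and 8.36%). With the wider assignment 1 of 6 was higher in KO (0.37% of all genes) and 1 of 7 lower in WT ESCs (0.385%). Pou3f1 was at 64.8 CPM with and 80.7 CPM without Nanog in KO ESCs (-0.32, -0.55 to -0.10) and at 43.0 and 83.4 CPM in WT ESCs (-0.96, -1.60 to -0.36). The methyltransferase gene Dnmt3a had -0.31 (-0.47 to -0.16) in KO and -0.61 (-1.04 to -0.20) in WT ESCs, while its relative Dnmt3b had 0.01 (-0.10 to 0.12) in KO ESCs. Otx2, a homeodomain factor of formative cells, was at -0.58 (-1.04 to -0.13) in WT and 0.68 (0.29 to 1.06) in KO ESCs of the wider assignment, with levels of 10.9 to 18.8 CPM.

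**Figure D3:**
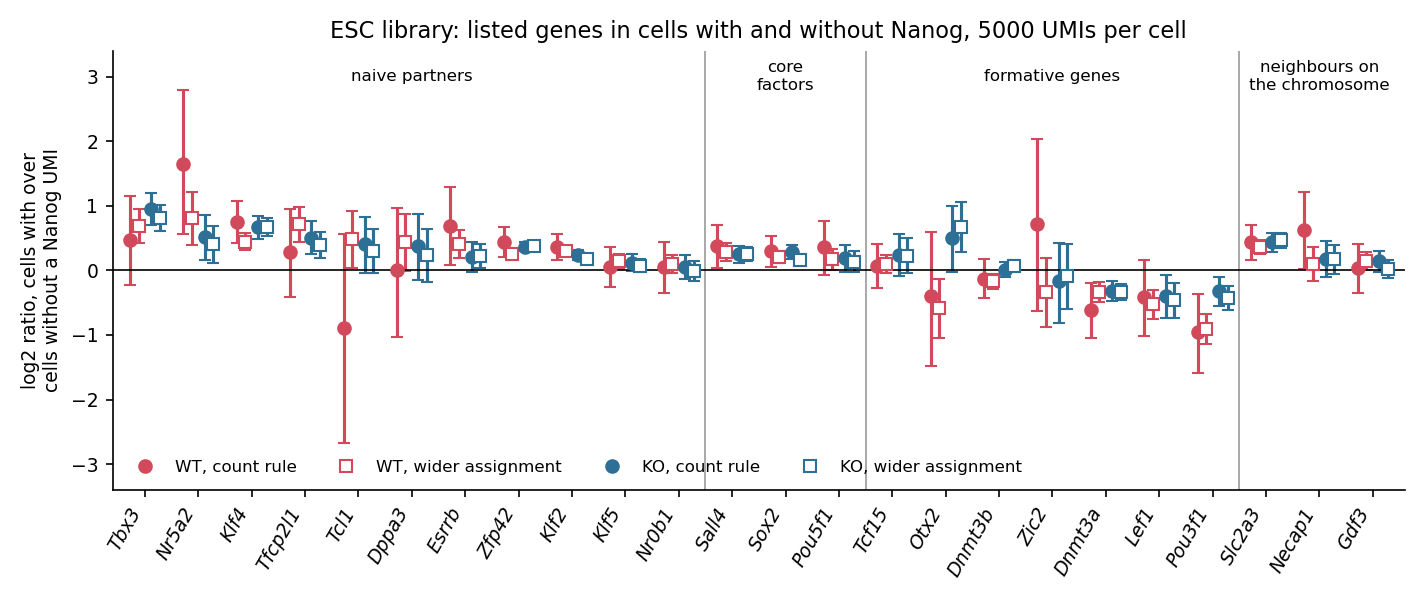
Log2 ratio (vertical axis) of each listed gene (horizontal axis) in ESCs with over ESCs without a Nanog UMI, each cell thinned to 5000 UMIs, in WT (red) and KO (blue) cells by the count rule (filled circles) and the wider assignment (open squares), with exact 95% binomial intervals for counting error. Tbx3 (0.95 in KO ESCs by the count rule) and Klf4 (0.67) lie above 0, and Pou3f1 (-0.32) and Dnmt3a (-0.31) below it.

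In 48h-EpiLCs Nanog-positive cells also had more naive transcripts. In KO cells (221 with, 2731 without Nanog) the partners summed to 472.5 and 329.5 CPM, a log2 ratio of 0.52 (0.39 to 0.65), and 2 of 7 measured partners were higher by 1.5 times or more (3.42% of all genes) and none was lower (2.85%). Zfp42 was at 178.3 CPM with and 98.8 CPM without Nanog, and 104 cells held both against 75.0 if independent. Tfcp2l1 was at 19.9 and 7.03 CPM, and so reached the 10 CPM needed to be counted only in the cells with Nanog. With the wider assignment the same count was 2 of 7 in KO cells (2.34%) with none lower (2.11%). In WT cells, with 41 Nanog-positive cells, the ratio of the sums was 0.57 (0.09 to 1.03), and 2 of 5 measured partners were higher (15.3% of all genes) and 1 was lower (17.2%). With the 364 positive cells of the wider assignment the ratio was 0.52 (0.36 to 0.68), and 1 of 5 was higher (1.18%) and none was lower (1.4%). The share of positive KO cells is of the size of the background given above, which was measured in the ESC library, where Nanog RNA was more abundant. The part of background in these ratios was not tested.

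The formative sum in 48h-EpiLCs had a log2 ratio of -0.22 (-0.30 to -0.13) in KO cells by the count rule and -0.12 (-0.19 to -0.05) by the wider assignment, but 0.03 (-0.09 to 0.15) in the KO cells that only the wider assignment placed. In WT cells it was 0.004 (-0.17 to 0.17) by the count rule, -0.07 (-0.13 to -0.01) by the wider assignment and -0.07 (-0.13 to -0.005) in the cells that only the latter placed. By the count rule 1 of 8 formative genes was lower by 1.5 times or more in KO cells (2.85% of all genes) and none in WT cells (17.2%). Lef1, a mediator of Wnt signals, was at 40.7 CPM with and 73.0 CPM without Nanog in KO cells.

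Among activin and Nodal genes, the log2 ratios differed from gene to gene. Lefty1, a secreted Nodal inhibitor that Nodal signalling induces, was at 677.6 CPM in Nanog-positive and 449.7 CPM in Nanog-negative WT 48h-EpiLCs of the wider assignment (0.59, 0.50 to 0.68), and at 409.3 and 403.9 CPM in KO 48h-EpiLCs. In ESCs of the wider assignment it had log2 ratios of -0.01 (-0.21 to 0.20) in WT and -0.34 (-0.51 to -0.17) in KO cells. The inhibitory Smad7 was higher in Nanog-positive ESCs, at 0.47 (0.27 to 0.66) in WT and 0.33 (0.15 to 0.51) in KO cells of that assignment, and the SMAD co-repressor Skil was lower, at -0.48 and -0.22. Proteins that bind Nanog had log2 ratios near 0 as a list, 0.03 (-0.09 to 0.15) in WT and 0.03 (-0.02 to 0.08) in KO ESCs, and within it the dioxygenase gene Tet2 had 0.36 (0.06 to 0.65) in KO ESCs. The regulators of Nanog were at 0.08 and 0.10 as a list. None of the 5 mesendoderm genes reached 10 CPM in any class.

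The naive sum was higher in ESCs with more Nanog UMIs. In KO ESCs with 0, 1, 2 and 3 or more Nanog UMIs among 5000 it was 1620, 1943, 2198 and 2551 CPM, over 2183, 483, 100 and 41 cells. In WT ESCs it was 1257, 1545, 1835 and 1945 CPM, the last over 11 cells. The formative sum was lower in count-rule ESCs with more Nanog UMIs, at 600.4, 557.4, 546.0 and 497.6 CPM in KO ESCs and at 695.9, 641.6, 408.7 and 327.3 CPM in WT ESCs. In the ESCs that only the wider assignment placed it was 581.0, 556.7, 446.8 and 580.6 CPM in KO cells, with no lower value at 3 or more UMIs, and 657.8, 578.5, 533.8 and 435.8 CPM in WT cells. In KO 48h-EpiLCs with 0, 1 and 2 Nanog UMIs the naive sum was 329.5, 424.5 and 707.1 CPM, the last over 28 cells.

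**Figure D4:**
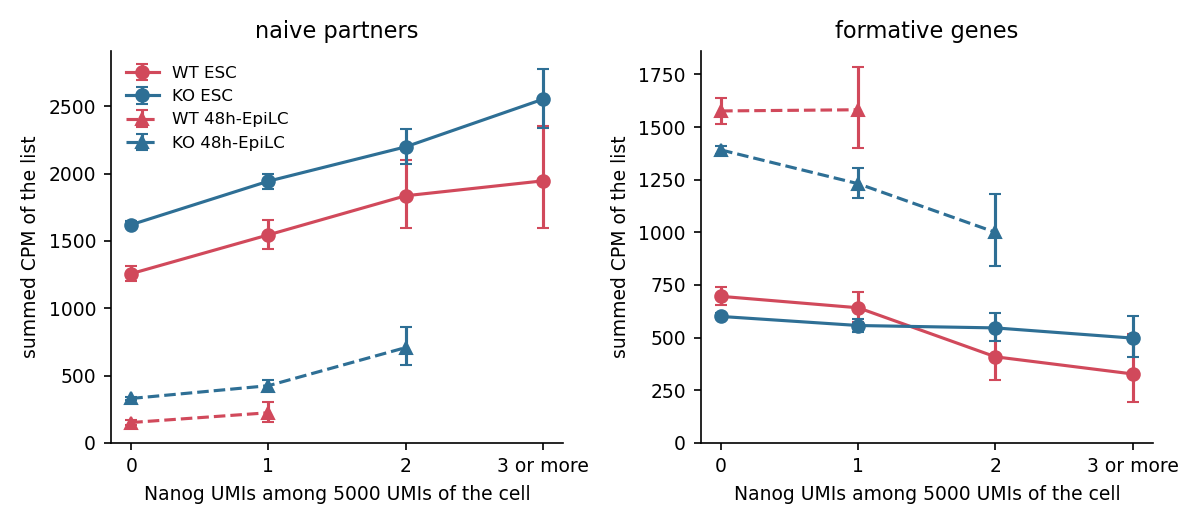
Summed level (CPM, vertical axes) of 12 naive partners (left) and 8 formative genes (right) in cells with 0, 1, 2 and 3 or more Nanog UMIs among 5000 (horizontal axes), in WT (red) and KO (blue) ESCs (circles, solid lines) and 48h-EpiLCs (triangles, dashed lines), with exact 95% Poisson intervals for counting error. Groups of too few cells are left out. The naive sum runs from 1620 to 2551 CPM in KO ESCs and from 1257 to 1945 CPM in WT ESCs.

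Read in the other direction, Nanog was lowest in the ESCs with few naive UMIs. Over the low, middle and high range of the naive sum it was 33.3, 55.1 and 94.5 CPM in KO ESCs and 41.0, 103.8 and 128.6 CPM in WT ESCs. Over the formative sum it was 66.0, 56.8 and 50.5 CPM in KO and 114.3, 80.9 and 49.5 CPM in WT ESCs. In ESCs that only the wider assignment placed it was 104.1, 81.5 and 59.8 CPM in WT cells. In such KO ESCs it was 68.1, 64.2 and 63.4 CPM, with overlapping intervals. In 48h-EpiLCs it was 14.7, 13.8 and 28.1 CPM in KO and 27.1, 22.9 and 40.0 CPM in WT cells over the naive sum. The intervals of the low and middle ranges overlapped in both lines, and in WT cells that of the high range (21.9 to 67.1) overlapped both. In KO 48h-EpiLCs that only the wider assignment placed, Nanog was at 11.8, 16.8 and 20.2 CPM, with overlapping intervals. In such WT 48h-EpiLCs it was at 25.7, 25.2 and 44.5 CPM, where the interval of the high range (36.0 to 54.4) stood apart. In KO 48h-EpiLCs of the wider assignment it was 12.9, 15.1 and 25.9 CPM. Over the formative sum KO 48h-EpiLCs were at 23.3, 16.9 and 11.2 CPM by the count rule. Those that only the wider assignment placed were at 16.3, 11.9 and 15.8 CPM, so the decline did not carry over to them. These ranges are cut from sums of a few UMIs and are not cell types. The low range held 0 to 6 naive UMIs and the high range 11 to 25 in KO ESCs.

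The gene next to Nanog on the chromosome was higher in Nanog-positive cells of every class. Slc2a3, which encodes the glucose transporter Glut3, lies 13176 bp after the end of Nanog on the opposite strand, and the 2 genes do not overlap. It was at 172.8 CPM with and 127.8 CPM without Nanog in KO ESCs (0.44, 0.29 to 0.58) and at 290.4 and 215.2 CPM in WT ESCs (0.43, 0.17 to 0.70). In 48h-EpiLCs it was at 134.9 and 78.9 CPM in KO (0.77, 0.52 to 1.02) and at 307.4 and 182.2 CPM in WT cells (0.75, 0.34 to 1.15). The wider assignment gave 0.37, 0.47, 0.43 and 0.76 for WT and KO ESCs and WT and KO 48h-EpiLCs.

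Like Nanog, Slc2a3 was lower in KO than in WT cells, at 138.5 and 232.5 CPM in ESCs and 84.7 and 198.1 CPM in 48h-EpiLCs. Of the 10 genes flanking Nanog, 3 others had sufficient levels in ESCs. Gdf3, a TGF-β family ligand, had a log2 ratio of 0.14 (-0.03 to 0.30) between Nanog-positive and Nanog-negative KO ESCs, Necap1 had 0.18 (-0.10 to 0.45) and Dppa3 0.37 (-0.14 to 0.87). In 48h-EpiLCs of the wider assignment Dppa3 had log2 ratios of CPM + 1 of 0.89 in WT and 0.56 in KO cells. There Gdf3 had 0.12 and -0.02 and Necap1 -0.60 and -0.11. C3ar1 had no UMI in the 4 classes of the count rule.

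In the ESC library 5132 genes reached 20 CPM in both lines, and the one with the highest mean log2 ratio between Nanog-positive and Nanog-negative cells over the lines was Calcoco2 (Ndp52), an autophagy receptor. It was at 127.4 CPM with and 51.0 CPM without Nanog in WT ESCs and had log2 ratios of 1.32 (0.85 to 1.79) in WT and 1.07 in KO ESCs. In cells that only the wider assignment placed, which had not served to choose it, the ratios were 1.10 (0.93 to 1.28) in WT and 0.87 (0.67 to 1.06) in KO ESCs. It stayed among the 10 highest genes in all 4 random draws of the thinning.

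Klf4 and Tbx3 were also among the 10 highest in all 4 draws. Ticrr, a replication factor, and Bmp4 were in it in 2 draws, and the F-box gene Fbxo15, Mageb16 and Pkig in 1. In the cells not used for the choice the ratios were 0.35 and 0.77 for Fbxo15 and 0.54 and 0.40 for Ticrr in WT and KO ESCs, but -0.32 and 0.09 for Mageb16. The 5 lowest genes were Adam19, Plcg2, Sox4, Mcrip2 and Lefty2, each in the list in 1 or 2 draws. Their ratios in the other cells lay between -0.28 and 0.18, so their place did not carry over. Slc2a3 was at place 51 and Pou3f1 at place 5116.

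In the 48h-EpiLC library the corresponding order of 5162 genes rested on 41 positive WT cells. Fabp3 headed it at a mean of 1.40, followed by Zfp787, Zfp42, Eprn and Tmem41b, and Nadk2, Rnf114, Terf2ip, Gzf1 and Adprm were the lowest. In the cells not used for the choice Fabp3 was at 0.09 and -0.11, and Zfp42 at 0.29 (-0.10 to 0.66) in WT and 0.33 (-0.10 to 0.74) in KO cells.

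The Nanog ratios along the cell-cycle sums in KO ESCs kept their sign at each depth of thinning. Whether their intervals left out 0 depended on that depth. Cells were ranged by the summed UMIs of 42 S-phase and of 52 G2/M genes after thinning. In KO ESCs the Nanog level was 60.6, 60.2 and 56.0 CPM from low to high S-phase sum, a log2 ratio of high over low of -0.11 (-0.36 to 0.13). Over the G2/M sum it was 56.6, 61.2 and 59.4 CPM, a log2 ratio of 0.07 (-0.18 to 0.32). At 10000 UMIs per cell the ratios were -0.18 (-0.38 to 0.02) and 0.24 (0.04 to 0.44), so that the interval over the G2/M sum left out 0. With all UMIs they were -0.26 (-0.40 to -0.11) and 0.18 (0.04 to 0.33), both with intervals that leave out 0. Cells differ in depth in that setting, and in KO ESCs the Nanog level differed with depth, as given above. The part of depth in these ratios was not tested.

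In WT ESCs Nanog was at 75.0, 93.6 and 91.4 CPM over the S-phase sum and at 69.7, 108.6 and 83.1 CPM over the G2/M sum. With the wider assignment WT ESCs had a log2 ratio of 0.23 (0.03 to 0.44) over the G2/M sum and -0.03 (-0.24 to 0.17) over the S-phase sum. In 48h-EpiLCs of that assignment the ratio over the S-phase sum was -0.54 (-0.90 to -0.19) in WT and -0.43 (-0.84 to -0.03) in KO cells, against -0.36 (-1.35 to 0.60) and -0.25 (-0.72 to 0.21) by the count rule. The ranges are parts of a score and not phases, and 545 of 2807 KO ESCs lay within 1 UMI of a boundary of the S-phase ranges and 460 within 1 UMI of one of the G2/M ranges. Free RNA also enters such sums, and its part was not tested.

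**Figure D5:**
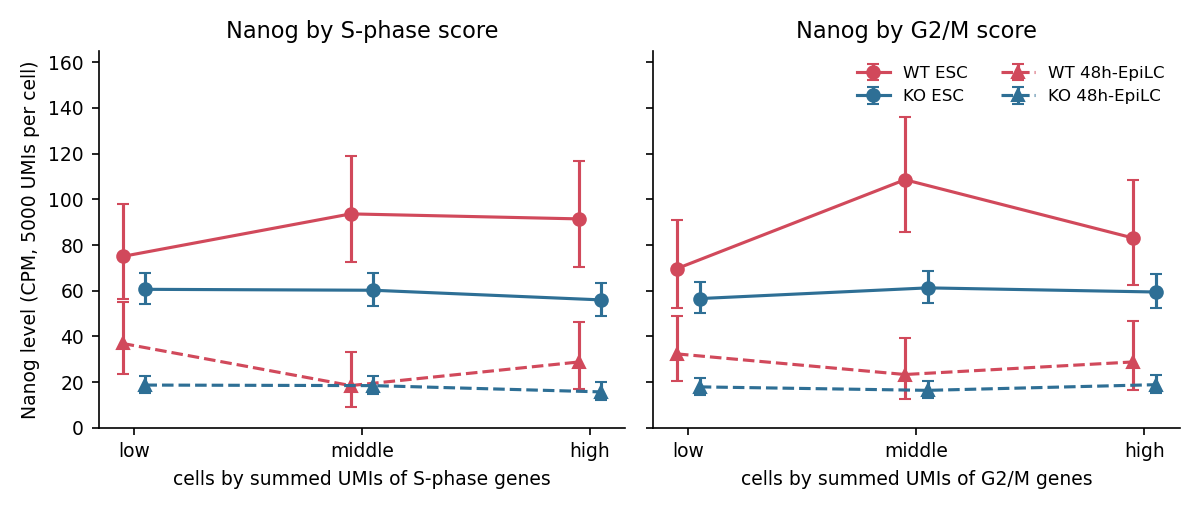
Nanog level (CPM, vertical axis) in cells of low, middle and high summed UMIs (horizontal axes) of S-phase genes (left) and G2/M genes (right), each cell thinned to 5000 UMIs, in WT (red) and KO (blue) ESCs (circles, solid lines) and 48h-EpiLCs (triangles, dashed lines), with exact 95% Poisson intervals for counting error. In KO ESCs the levels lie between 56.0 and 61.2 CPM over all 6 ranges.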

How the data were processed

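The deposited matrices hold UMI counts for each gene in each barcode. Cell Ranger (version 3.0.2) was run by the authors on mm10 plus the tdTomato coding sequence; the submitters' notes also name Seurat (version 4). The libraries held 144584246 and 163771168 UMIs (medians 10965.5 and 13333 per barcode). UMIs were summed per library and line and scaled to the class total (CPM), with exact 95% Poisson or binomial intervals, which cover counting error only. With 1 library per stage no test was made between cells. Other cell types were set aside at 3 or more markers and 5 or more UMIs of a list; the wider assignment needed a log likelihood ratio of 4. Thinning kept 5000 UMIs per cell. Doublets were scored with Scrublet in scanpy (version 1.11.5; expected rate 0.1) and kept, with the top 10% left out as an alternative. List counts and the shares of all genes used 1.5-fold on log2(CPM + 1) among genes of at least 10 CPM in either group compared. A gene could thus be counted through the group where it was higher. Genes most like Nanog were the 10 highest and 5 lowest (5 and 5 in 48h-EpiLCs) by mean log2 ratio with the same sign in both lines; some are not reported here. Functions were tested on simulated data. Nanog, the lists and rules were chosen with earlier results of these data known.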

Additional observations from a re-analysis of the deposited data

Results flagged for a closer look

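Nanog UMIs were also found in the barcodes that the filters left out. In the ESC library 2130 such barcodes had a median of 1146.5 UMIs and a Nanog level of 52.8 CPM (45.0 to 61.6), and 6.43% of them had a Nanog UMI. In the 48h-EpiLC library 3027 such barcodes had a median of 1266 UMIs and a level of 16.7 CPM (13.1 to 20.9), and 2.31% had a Nanog UMI. Neither barcode set entered the comparisons above. The order of the stages was the same as in the kept cells.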

How the results depend on the processing

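Alternatives changed the gene and mitochondrial filters, the Y-linked minimum, the line assignment, the other cell types, doublets, scaling and thinning, and 3 further random draws of the thinning were added after seeing the data. Of 74 values recomputed, 68 stayed within the interval of the main value, 6 moved beyond it and none reversed. The naive partner ratio in KO ESCs (0.32) was 0.24 without thinning and 0.26 and 0.27 in further draws 2 and 3. The extra variation in KO ESCs (1.08) was 1.46 after thinning to 5000 UMIs. In WT ESCs (0.75) it was 0.73 after that thinning and stayed within the main interval, but its own interval (-0.09 to 1.56) then included 0. The stage ratio in KO cells (-1.75) was -1.64 with at least 3 Y-linked UMIs and -1.87 with the wider assignment. No paired analysis was possible because each stage has 1 library. The WT 48h-EpiLCs by the count rule hold 171 Nanog UMIs in 368 cells, which limits the precision of their values.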
